A study of Homo sapiens with 6 samples.

Results

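The genes described here are 40 human genes, MYC and its partner MAX together with 38 genes of ribosome assembly in the nucleolus. They were chosen by symbol, and each of the 40 symbols matched 1 row of the 60589 genes in the table. RNA was sequenced from SNU449, an established line of a human liver tumour (hepatocellular carcinoma), collected at day 3. There were 3 libraries from cells given a control siRNA (siControl) and 3 from cells given an siRNA against MAD2L1, a spindle checkpoint gene (siMAD2L1), and the same growth conditions are given for both. The values are TPM, a measure of transcript abundance scaled to transcript length and to 1 common total in every library. They show the share of a transcript in its library and not the amount of RNA per cell, and fewer cells with a transcript cannot be told apart from less of it in each cell. The depth of the libraries is unknown. All 40 genes passed the filter (average TPM over the 6 libraries not below 1) and were tested, among 14790 genes in all.

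Ribosomes are built in the nucleolus. RNA polymerase I, guided by the DNA-binding factor UBTF, copies the ribosomal genes into a long precursor RNA. Small nucleolar ribonucleoproteins modify the precursor, and large sets of assembly factors fold and cut it into the small and the large ribosomal subunit. MYC, a transcription factor that pairs with MAX and binds the DNA element called the E-box, is known to drive many of these genes, and liver tumours often have high MYC activity and enlarged nucleoli.

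Promoter windows of 300 bases, from 250 bases before the gene start to 50 bases after it, were at hand for 34 of the 40 genes in RefSeq sequence (GRCh38.p14). Those without a window were MYC, BOP1, RRS1, NOLC1, NOP58 and RRP12. The E-box searched was CACGTG, which reads the same on both strands. At least 1 window of 18 genes held it (52.9%), against 12.7% of the 10229 tested genes with a window. In the related lists described below the share was 56% of other described MYC targets, 33.3% of further small subunit genes and 25.7% of further large subunit genes. It was 30% in the MYC and MAX network, 28.6% of proliferation genes, 9.09% of other RNA polymerase I genes and 8.33% of the trimming exosome. Counted by window the shares were 43.2% of 44 and 9.47% of 14861, and among windows of tested genes with a GC content of 57.3% to 69.7%, the 25th to 75th percentile of the windows of the 40 genes, 10.3% held it. The motif began within 50 bases of the gene start in 17 of the 19 windows that held it (89.5%), against 40.4% of such windows of tested genes. It was present in 8 of 11 small subunit factors described below (72.7%) and in 5 of 9 large subunit factors (55.6%), and was absent from the windows of POLR1A, POLR1B, POLR1C and UBTF. A match is a description of the letters and not a binding site, and the genes were listed together as a MYC-related set, so these shares were not tested.

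The 6 genes whose E-box began within 10 bases of the gene start show how the motif sits at the start in genes of both subunits. Each stretch holds the motif in capitals with 10 bases on either side, read 5′ to 3′ on the strand of the gene (GRCh38.p14). They are FBL at chr19:39846358-39846383 (minus strand), RRP9 at chr3:51941894-51941919 (minus strand), WDR43 at chr2:28894660-28894685 (plus strand), UTP20 at chr12:101280085-101280110 (plus strand), RCL1 at chr9:4792938-4792963 (plus strand) and GNL3 at chr3:52686028-52686053 (plus strand).
FBL: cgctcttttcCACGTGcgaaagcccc
RRP9: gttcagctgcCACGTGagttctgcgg
WDR43: cacggacgaaCACGTGgctgcagcgg
UTP20: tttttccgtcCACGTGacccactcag
RCL1: tgttccaaacCACGTGgacgcgtctg
GNL3: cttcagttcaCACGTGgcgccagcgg

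**Figure D1:**
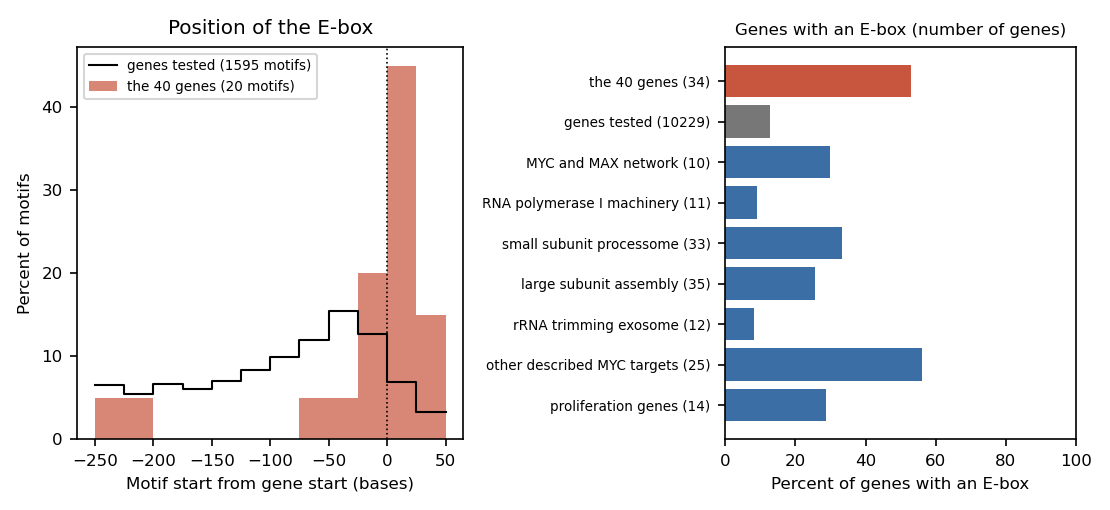
The left panel plots where the E-box CACGTG begins relative to the gene start, in bases, as the percent of motifs in bins of 25 bases for the 40 genes (20 motifs, bars) and for all genes tested (1595 motifs, line). The right panel plots the percent of genes with at least 1 E-box, 52.9% of the 34 genes with a window against 12.7% of the tested genes, with the related gene lists below.

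The knockdown was read before any other gene. MAD2L1 measured 14.5, 13.7 and 13.9 TPM in siControl replicates 1, 2 and 3 and 4.47, 0.795 and 2.40 TPM in siMAD2L1 replicates 1, 2 and 3 (log2 fold change -2.22, SE 0.357, limma adjusted p = 0.0105). Its call ended when siControl replicate 1 or 3 was left out, where the adjusted p reached 0.0531. The titles of all 3 knockdown libraries name MAD2L1, while the treatment field of replicates 2 and 3 names MAD2L2 and MAD2L3. MAD2L2 measured 150, 146 and 138 TPM in siControl and 123, 154 and 138 TPM in siMAD2L1 replicates 1, 2 and 3 (log2 fold change -0.07, limma adjusted p = 0.698). Hepatocyte markers were scarce, with 8 of 13 under a mean of 1 TPM. ALB had a mean of 0.365 TPM in siControl, and APOB, APOC3 and TTR were listed at 0 in every library. Of the 5 that passed the filter TF, FGB and FGA had siControl means of 8.83, 7.42 and 4.44 TPM. All 3 fell (log2 fold changes -0.97, -1.17 and -1.50, limma adjusted p = 0.0181, 0.0142 and 0.00691), and SERPINA1 and AFP were not called. The mesenchymal VIM stood at 9494 ± 443 TPM in siControl (SD, n = 3). The epithelial KRT8 and KRT18 had siControl means of 222 and 194 TPM, above the mesenchymal CDH2 and FN1 at 34.3 and 55.4 TPM. KRT19, EPCAM and CDH1 had siControl means of at most 1.27 TPM. KRT8 (log2 fold change -0.44, limma adjusted p = 0.0101) and KRT18 (-0.55, adjusted p = 0.00661) fell, and no other tested marker of this list was called. The summed hepatocyte markers lay between 22.2 and 27.6 TPM in siControl and between 8.92 and 15.3 TPM in siMAD2L1. The 7 leukocyte markers summed to between 69.7 and 77.2 TPM in siControl and between 129 and 150 TPM in siMAD2L1, with CD3E and NKG7 listed at 0 throughout. Of the 3 that passed the filter CD68 rose from 65.8 to 137 TPM, while CD14 (7.50 and 3.43 TPM, adjusted p = 0.0851) and LYZ (log2 fold change -0.20, adjusted p = 0.698) did not pass. The 8 fibroblast and stellate markers summed to between 542 and 641 TPM in siControl and between 374 and 452 TPM in siMAD2L1, with LUM at 0 throughout, and the 5 endothelial markers to at most 1.08 TPM in any library, with TEK at 0 throughout. Of the 5 fibroblast and stellate markers that passed the filter COL1A2 fell from 389 to 232 TPM (-0.74, limma adjusted p = 0.00187). The other 4 were not called, among them COL1A1 (133 and 97.6 TPM) and RGS5, the 1 with a fold change above 0 (39.4 and 53.35 TPM). The mitochondrially encoded share of TPM was 15.3% ± 0.0603 in siControl and 9.84% ± 0.896 in siMAD2L1 (SD, n = 3 each; exact permutation p = 0.1, the smallest that 3 against 3 allows). The part of these shifts in the results below was not tested.

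Most of the 40 genes did not change detectably after MAD2L1 knockdown. NIP7, EBNA1BP2, NOP56 and NOLC1 fell, 36 genes did not pass the test and none rose. The test was limma on log2(TPM + 1), fitted to all 14790 genes, with a call at a Benjamini-Hochberg adjusted p under 0.05. The 4 falls are 10% of the 40 genes, while over all genes tested 6.23% were called lower, 3.55% higher and 9.78% in either direction. The median log2 fold change of the 40 genes was -0.16, beside -0.08 over all genes tested. It was below 0 for 27 of the 40 (67.5%), beside 59.9% of all genes tested. The siMAD2L1 libraries lay wholly below the siControl libraries for 11 genes (27.5%), beside 21.5% of all genes tested, and wholly above them for 0, beside 11.3%. Over both directions the groups did not overlap at 32.8% of all genes tested. The shares of the 40 genes called lower, or wholly below the controls, lie near those of the table as a whole.

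The scaling moved the balance of the calls. Over all genes, 63.7% of the calls were lower, but 52.5% after upper-quartile scaling, 50.5% after quantile normalization and 44.4% after removal of a trend with transcript length. In the other direction, the share was 73.1% after rescaling without mitochondrial and the 20 highest genes. It was 66% after rescaling over protein-coding genes. When siMAD2L1 replicate 1 was left out, 8 of the 40 genes were called lower (20%, beside 11.5% of all genes). Leaving out siControl replicate 1 gave 0, siControl replicate 2 gave 2, and siControl replicate 3 or siMAD2L1 replicate 2 or 3 gave 1. Library weights gave 13 (32.5%, beside 22.6% of all genes). The median of the 40 genes lay between -0.21 and -0.078 in the 16 alternatives that moved it, and the other 5 leave fold changes as they are.

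**Figure D2:**
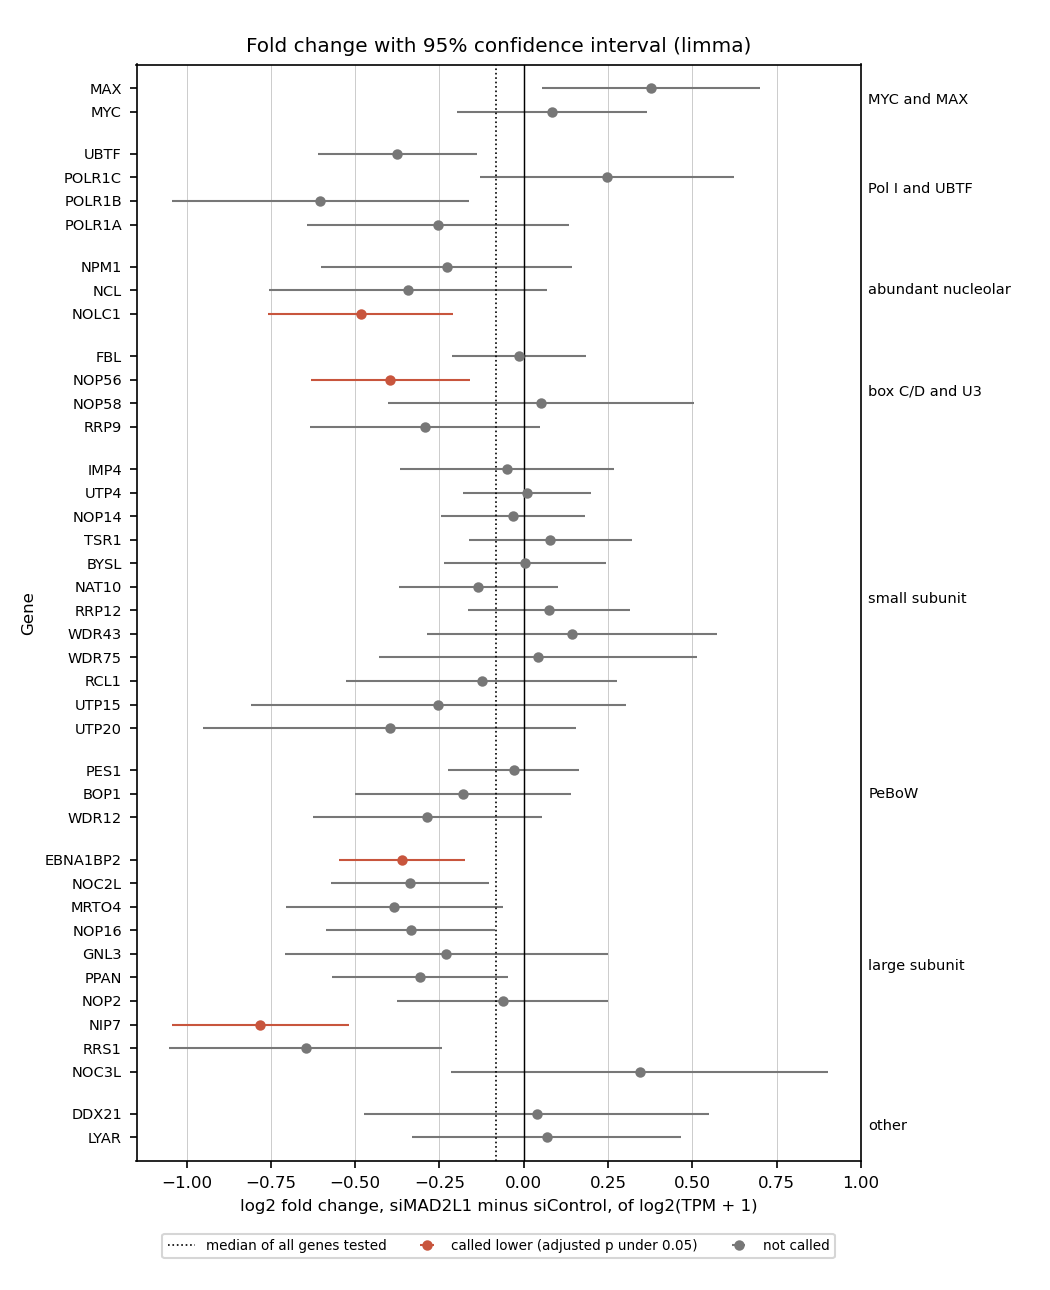
Each point is the log2 fold change of 1 gene (siMAD2L1 minus siControl, of log2(TPM + 1)) with its 95% confidence interval from limma, grouped by role. The 4 genes called lower are in red, and the dotted line marks the median of all genes tested, -0.08.

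MYC mRNA did not differ detectably between the groups. MYC lies on chromosome 8 (127735434 to 127741434, plus strand, GRCh38) and measured 48.0, 53.2 and 52.2 TPM in siControl and 46.7, 53.2 and 63.8 TPM in siMAD2L1. The siMAD2L1 libraries held both the lowest and the highest value, so the groups overlapped. The log2 fold change was 0.08 (95% interval -0.20 to 0.36, limma adjusted p = 0.711). MAX, the obligate partner of MYC, measured 51.9, 50.3 and 42.1 TPM in siControl and 67.1, 51.4 and 70.6 TPM in siMAD2L1. Replicates 1 and 3 of siMAD2L1 were above every siControl library, and replicate 2 lay among them. The log2 fold change of MAX was 0.38 (95% interval 0.05 to 0.70, limma adjusted p = 0.135). Both passed under library weights (MYC 0.29, limma adjusted p = 0.0366, and MAX 0.46, limma adjusted p = 0.0153). That setting called 1514 of all genes higher, against 525 in the main fit.

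Of the wider MYC and MAX network 9 of 10 listed genes passed the filter, and 1 rose and 1 fell. MXD1, which competes with MYC for MAX, measured 2.46, 2.56 and 2.43 TPM in siControl and rose to 5.97, 3.83 and 4.96 TPM (log2 fold change 0.75, limma adjusted p = 0.0472). MXD3, of the same family, measured 22.6, 18.3 and 20.2 TPM in siControl and fell to 8.02, 13.9 and 11.9 TPM (log2 fold change -0.82, limma adjusted p = 0.0370). Of the 6 fits that each leave out 1 library, MXD1 was called in 1 and MXD3 in 2. Their adjusted p was highest when siControl replicate 1 was absent, at 0.148 and 0.139.

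The genes that transcribe ribosomal DNA did not pass the test. UBTF measured 44.9, 55.7 and 50.5 TPM in siControl and 38.3, 36.9 and 40.3 TPM in siMAD2L1, with every siMAD2L1 library below every siControl library. Its log2 fold change was -0.37 (95% interval -0.61 to -0.14, limma adjusted p = 0.0587). UBTF passed in 3 of 21 alternatives, namely a filter at 5 TPM (adjusted p = 0.0441), rescaling that drops mitochondrial genes and the 20 highest (0.0418) and library weights (0.0357). POLR1C, a subunit that RNA polymerase I shares with RNA polymerase III, measured 26.97, 17.2 and 19.1 TPM in siControl and 25.9, 24.6 and 23.9 TPM in siMAD2L1, within the spread of the controls (0.25, adjusted p = 0.383). POLR1B, a large catalytic subunit, had group means of 13.8 ± 3.03 and 8.64 ± 1.38 TPM with no overlap (-0.60, 95% interval -1.04 to -0.16, adjusted p = 0.0871). POLR1A, the largest subunit, had means of 8.27 ± 0.599 and 6.85 ± 1.47 TPM, and its groups overlapped (-0.25, adjusted p = 0.385).

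The other 13 genes of the RNA polymerase I machinery had a median log2 fold change of -0.08, and 0 of them were called by limma. The highest by TPM were POLR1D, a shared subunit (78.0 ± 2.07 and 96.1 ± 5.19 TPM; 0.30, adjusted p = 0.0507, siMAD2L1 wholly higher), and TCOF1, the treacle nucleolar scaffold (38.3 ± 2.58 and 34.2 ± 1.65 TPM; -0.16, adjusted p = 0.338). POLR1D passed as higher in 3 of 21 alternatives, a filter at 5 TPM (adjusted p = 0.0389), library weights (0.00567) and the omission of siMAD2L1 replicate 1 (0.0270).

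NPM1 and NCL, the most abundant transcripts of the 40 after FBL, split the siMAD2L1 libraries. NPM1, a chaperone of the outer nucleolar layer, measured 507, 506 and 559 TPM in siControl and 594, 380.3 and 393 TPM in siMAD2L1. NCL, or nucleolin, which binds the ribosomal precursor RNA, measured 294, 318 and 336 TPM in siControl and 339, 199 and 228 TPM in siMAD2L1. For both genes siMAD2L1 replicate 1 was the highest of the 6 libraries, and replicates 2 and 3 were below every siControl library. Over all 3 libraries neither passed (NPM1 -0.23, adjusted p = 0.414, and NCL -0.34, adjusted p = 0.269), but without siMAD2L1 replicate 1 both did (NPM1 -0.43, adjusted p = 0.00979, and NCL -0.57, adjusted p = 0.00976). NPM1 has 49 named pseudogenes in the table, which together held 0.226% of its mean TPM.

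NOLC1, a nucleolar chaperone of small nucleolar ribonucleoproteins (chromosome 10, 102152176 to 102163871, plus strand), fell. It measured 51.1, 49.98 and 52.5 TPM in siControl and 39.4, 30.4 and 39.9 TPM in siMAD2L1. All 3 siMAD2L1 libraries were below all 3 siControl libraries, and the mean fell by 28.5% (log2 fold change -0.48, SE 0.118, limma adjusted p = 0.0422). Of the 6 fits that each leave out 1 library, only that omitting siMAD2L1 replicate 1 kept the call, and omitting siControl replicate 1 gave an adjusted p of 0.140.

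**Figure D3:**
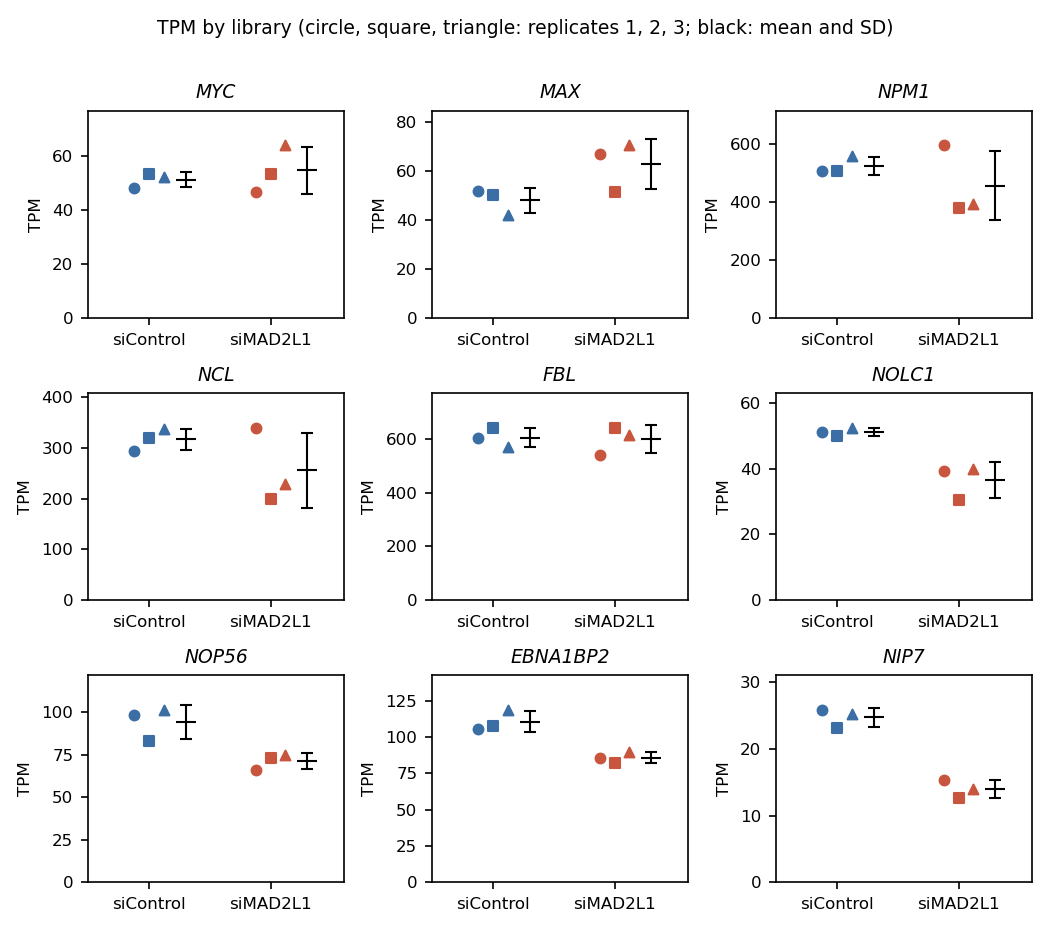
TPM of 9 genes in the 3 siControl (blue) and 3 siMAD2L1 (red) libraries, with the mean and SD in black. NOLC1, NOP56, EBNA1BP2 and NIP7 lie lower in every siMAD2L1 library, NPM1 and NCL are highest in siMAD2L1 replicate 1 (circle), and MYC and FBL overlap between groups.

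Of the box C/D ribonucleoprotein, which carries out methylation of ribosomal RNA, 1 of the 3 core proteins among the 40 genes fell. FBL, or fibrillarin, the methyltransferase, was the most abundant of the 40 genes and measured 604, 642 and 568 TPM in siControl and 541, 641 and 616 TPM in siMAD2L1. The ranges overlapped almost wholly (-0.01, 95% interval -0.21 to 0.18, limma adjusted p = 0.937). NOP56, a scaffold protein of the same particle (chromosome 20, 2652145 to 2658393, plus strand), measured 98.7, 83.2 and 101 TPM in siControl and 66.1, 73.0 and 75.2 TPM in siMAD2L1. Its groups did not overlap and its mean fell by 24.4% (-0.40, SE 0.102, limma adjusted p = 0.0489). NOP56 kept its call in 1 of those 6 fits, the one omitting siControl replicate 2, and reached an adjusted p of 0.180 on omission of siControl replicate 1. NOP58, the paired scaffold protein, had means of 19.3 ± 1.38 and 20.6 ± 6.48 TPM (0.05, adjusted p = 0.895), with 28.1 TPM in siMAD2L1 replicate 1 alone above the controls. RRP9, a protein of the U3 particle, measured 20.3, 19.96 and 25.8 TPM in siControl and 16.4, 16.2 and 20.8 TPM in siMAD2L1 and did not pass (-0.29, adjusted p = 0.251). Differences between these genes were not tested.

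The small subunit factors showed no detectable change. Of 12 such genes, 0 passed limma, 6 had a log2 fold change below 0 and 6 above, the groups overlapped for all 12, and the median was -0.01. IMP4, of the U3 particle, measured 104, 105 and 120.1 TPM in siControl and 85.4, 122 and 112 TPM in siMAD2L1, with siMAD2L1 both lowest and highest (-0.05, adjusted p = 0.856). UTP4, of the UtpA complex that binds the precursor RNA early, measured 72.8, 73.4 and 72.4 TPM in siControl and 68.8, 72.2 and 79.3 TPM in siMAD2L1, around the narrow range of the controls (0.01, 95% interval -0.18 to 0.20, adjusted p = 0.962).

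The log2 fold changes of the assembly factors NOP14 (-0.03), TSR1 (0.08), BYSL (0.0030) and RRP12 (0.07) and of NAT10, an RNA acetyltransferase (-0.13), had 95% intervals between -0.37 and 0.32. TSR1 shares 1146 exonic bases with SRR on the opposite strand. The less abundant genes were less certain. WDR43, WDR75 and UTP15 belong to the same complex as UTP4. WDR43 (0.14), WDR75 (0.04), RCL1 (-0.12), UTP15 (-0.25) and UTP20 (-0.40) had group means between 1.69 and 13.99 TPM and standard errors between 0.174 and 0.240. UTP20 had the lowest level of the 40 genes, with 2.49 ± 0.327 TPM in siControl and 1.69 ± 0.632 TPM in siMAD2L1. Of 39 other genes of the small subunit processome, 1 rose and 0 fell in limma, at a median of -0.07. The riser was IMP3, a partner of IMP4 in the U3 particle, from 91.2 ± 6.61 to 120 ± 9.76 TPM (0.39, adjusted p = 0.0396). IMP3 was called in 1 of the 6 fits with 1 library fewer, and the fit lacking siMAD2L1 replicate 3 gave 0.125.

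The PeBoW complex, in which PES1, BOP1 and WDR12 work together in large subunit processing, did not pass for any subunit. PES1 measured 110.2, 121 and 113 TPM in siControl and 103, 115 and 119 TPM in siMAD2L1 (-0.03, 95% interval -0.22 to 0.16, adjusted p = 0.858). BOP1 measured 65.7, 75.3 and 80.5 TPM in siControl and 53.6, 67.4 and 75.6 TPM in siMAD2L1 (-0.18, adjusted p = 0.456). Both subunits overlapped between groups. WDR12 measured 32.7, 34.6 and 33.5 TPM in siControl and 34.7, 23.4 and 25.2 TPM in siMAD2L1 (-0.29, adjusted p = 0.261), with replicate 1 above and replicates 2 and 3 below all controls. WDR12 passed without siMAD2L1 replicate 1 (-0.45, adjusted p = 0.0162).

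**Figure D4:**
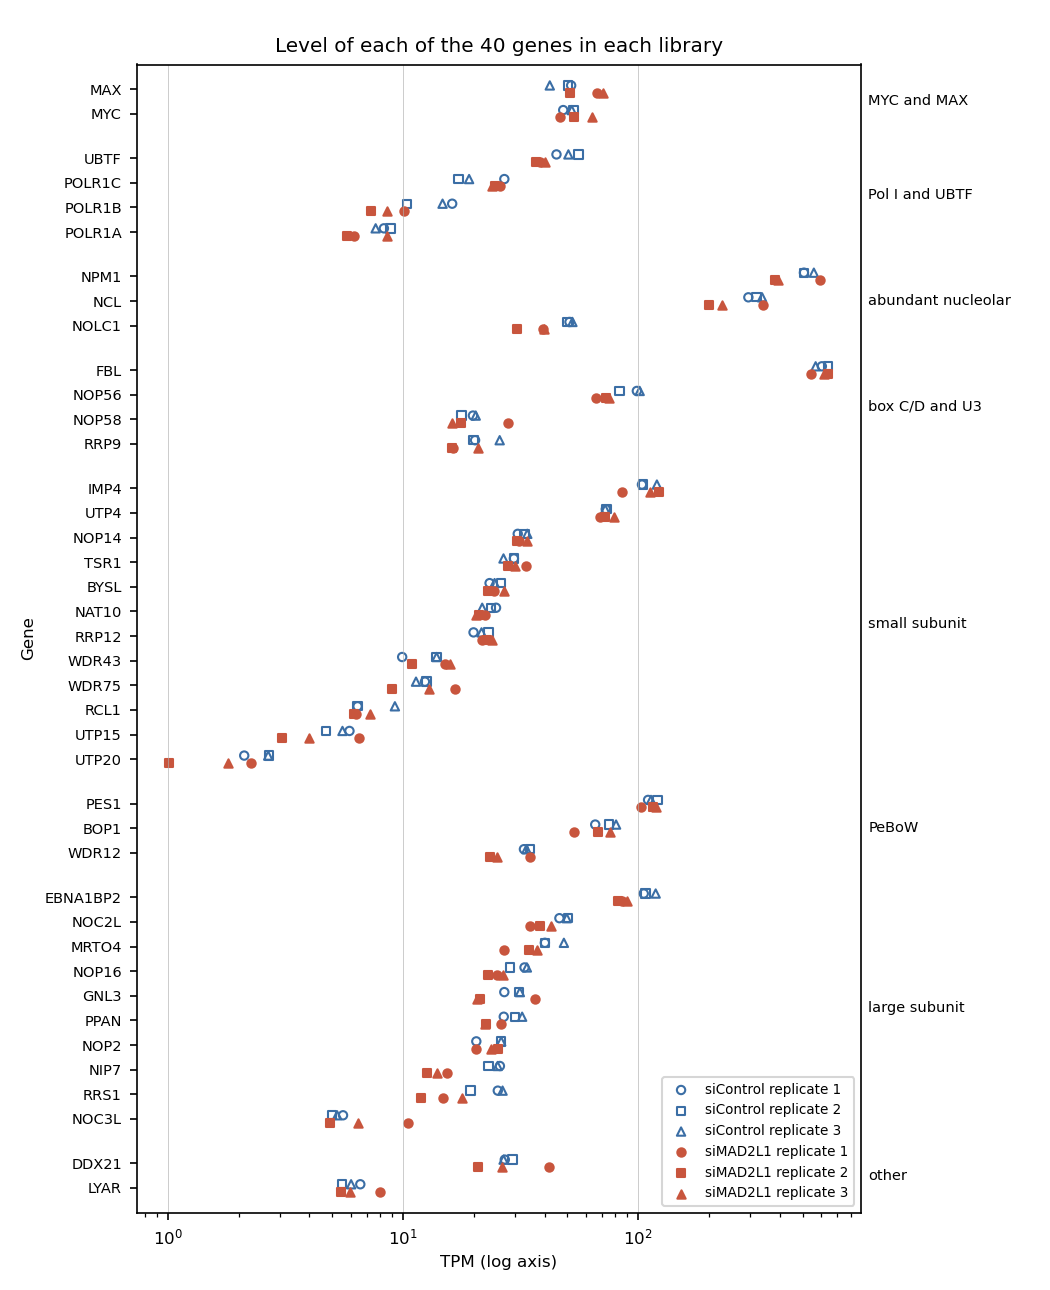
TPM (log axis) of each of the 40 genes in each of the 6 libraries, grouped by role, with siControl in open blue and siMAD2L1 in filled red symbols. The genes range from about the level of UTP20 (2.49 TPM in siControl) to that of FBL (605 TPM), and siMAD2L1 replicate 1 (red circle) is the highest library for 11 of them.

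Among the other large subunit factors 2 of 10 fell, 9 of 10 had a log2 fold change below 0, and the siMAD2L1 libraries lay wholly below the controls for 7. Over all genes tested these shares were 6.23%, 59.9% and 21.5%, and with 10 genes the difference was not tested. The median was -0.34, beside -0.08 over all genes tested and -0.12 over 40 further large subunit genes. Of those further large subunit genes 0 fell, 70% had a log2 fold change below 0, and 17.5% lay wholly below the controls. NIP7, an RNA-binding factor of precursor processing (chromosome 16, 69337996 to 69343111, plus strand), had the largest change of the 40 genes. It measured 25.8, 23.1 and 25.3 TPM in siControl and 15.3, 12.7 and 13.97 TPM in siMAD2L1. The groups were far apart, and the mean fell by 43.4% (-0.78, SE 0.113, limma adjusted p = 0.00721). NIP7 was called in 20 of 21 alternatives, the exception being the omission of siControl replicate 1 (adjusted p = 0.0516). COG8, on the opposite strand, shares 957 exonic bases with NIP7. The library kit named in the labels is not a directional one, so reads of this stretch cannot be told apart. COG8 itself had means of 27.6 and 21.5 TPM (-0.34, adjusted p = 0.126).

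EBNA1BP2, an assembly factor of early large subunit particles (chromosome 1, 43164175 to 43270936, minus strand), measured 106, 107 and 119 TPM in siControl and 85.6, 82.3 and 89.7 TPM in siMAD2L1. All siMAD2L1 libraries were lower, and the mean fell by 22.3% (-0.36, SE 0.0809, limma adjusted p = 0.0323). Of the 6 fits lacking 1 library each, EBNA1BP2 was called only where siMAD2L1 replicate 1 was omitted, and omitting siControl replicate 3 gave 0.126.

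The promoter windows of the 2 large subunit genes that fell differ at the E-box. That of NIP7 (chr16:69339522-69339821, plus strand) holds none, and that of EBNA1BP2 (chr1:43172241-43172540, minus strand) holds 1 that begins 42 bases after the first base of the gene, in capitals. A further EBNA1BP2 window upstream holds 1 more, at position -237 from its own start. Both windows are RefSeq sequence of GRCh38.p14, read 5′ to 3′ on the strand of the gene, and their gene starts lie inside the longer GENCODE 29 models given above. NIP7 was added to the sequence rule after its values were seen.
NIP7: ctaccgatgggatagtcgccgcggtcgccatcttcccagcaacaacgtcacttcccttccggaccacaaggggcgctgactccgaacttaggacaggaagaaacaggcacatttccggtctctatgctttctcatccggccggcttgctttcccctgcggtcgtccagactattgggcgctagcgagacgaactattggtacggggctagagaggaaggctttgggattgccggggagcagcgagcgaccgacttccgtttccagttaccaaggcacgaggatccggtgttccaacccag
EBNA1BP2: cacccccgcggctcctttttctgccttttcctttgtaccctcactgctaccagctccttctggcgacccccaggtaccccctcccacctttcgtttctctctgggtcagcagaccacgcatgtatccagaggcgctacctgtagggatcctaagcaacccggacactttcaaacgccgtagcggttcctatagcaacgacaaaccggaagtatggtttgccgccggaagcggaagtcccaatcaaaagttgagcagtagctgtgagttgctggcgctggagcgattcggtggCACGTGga

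NOC2L, a maturation factor of large subunit particles, measured 46.2, 50.2 and 49.7 TPM in siControl and 34.6, 38.3 and 42.5 TPM in siMAD2L1, with no overlap, but did not pass (-0.34, 95% interval -0.57 to -0.10, adjusted p = 0.0769). RRS1, an early large subunit assembly factor, had means of 23.7 ± 3.82 and 14.9 ± 2.96 TPM with no overlap (-0.65, 95% interval -1.05 to -0.24, adjusted p = 0.0572). RRS1 passed in 4 of 21 alternatives, a filter at 5 TPM (0.0403), rescaling that drops mitochondrial genes and the 20 highest (0.0476), library weights (0.0252) and the replicate number as a block (0.0355). MRTO4 (-0.38), NOP16 (-0.34) and PPAN (-0.31) also lay lower in every siMAD2L1 library without passing, with adjusted p between 0.0939 and 0.131.

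The remaining factors overlapped between groups. NOP2, a ribosomal RNA methyltransferase, had means of 24.3 ± 3.26 and 23.2 ± 2.54 TPM (-0.06, adjusted p = 0.816). GNL3, the GTP-binding protein nucleostemin, measured 36.4 TPM in siMAD2L1 replicate 1 and 21.2 and 20.7 TPM in replicates 2 and 3, against 29.8 ± 2.47 TPM in siControl (-0.23, adjusted p = 0.527). NOC3L was also highest in replicate 1, with 10.5, 4.88 and 6.43 TPM against 5.26 ± 0.286 TPM (0.34, adjusted p = 0.414). PPAN shares 1447 exonic bases with the readthrough gene PPAN-P2RY11 on the same strand, and NOP2 shares 2550 with AC006064.6, listed at 6.004, 0 and 5.83 TPM in siControl and at 0 in all siMAD2L1 libraries. The values of PPAN and NOP2 are therefore uncertain.

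DDX21, an RNA helicase that links RNA polymerase I output to processing, measured 27.1, 29.2 and 26.8 TPM in siControl and 41.7, 20.8 and 26.5 TPM in siMAD2L1 (0.04, adjusted p = 0.934). LYAR, a zinc finger protein of the nucleolus, measured 6.58, 5.50 and 6.02 TPM in siControl and 7.96, 5.43 and 5.92 TPM in siMAD2L1 (0.07, adjusted p = 0.844). For both the siMAD2L1 libraries span the controls, with replicate 1 highest and replicate 2 lowest.

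The siMAD2L1 libraries were ranked among the 6 for each gene. In siMAD2L1 replicate 1, 11 of the 40 genes had their highest value of the 6 libraries (27.5%, beside 30.3% of all genes tested), and in siMAD2L1 replicate 2, 21 had their lowest (52.5%, beside 29.4%). Both held for 8 genes (20%, beside 11.3% of all genes tested), NCL, NPM1, UTP15, WDR75, WDR12, NOC3L, DDX21 and LYAR. The share highest in replicate 1 was thus no larger than that of the table, and neither of the other shares was tested against it. The median log2 difference of the 40 genes from the siControl mean was -0.11, -0.32 and -0.07 in siMAD2L1 replicates 1, 2 and 3, beside 0.02, -0.15 and -0.12 over all genes tested. Summed over the 40 genes the level was 2690, 2396 and 2526 TPM in siMAD2L1 replicates 1, 2 and 3 and 2731, 2813 and 2871 TPM in siControl. With NPM1 and NCL taken out the sums were 1757, 1817 and 1905 TPM in siMAD2L1 and 1930, 1989 and 1976 TPM in siControl. Replicate 1 was then the lowest of the siMAD2L1 libraries and not the highest. Without siMAD2L1 replicate 1, NCL, NPM1, WDR12, PPAN and GNL3 passed in addition to NOLC1, EBNA1BP2 and NIP7, while NOP56 did not, and 11.5% of all genes were then called lower.

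Replicate 1 also kept the most MAD2L1, 4.47 TPM. Its difference from siControl rose with transcript length by 0.24 log2 units per 10-fold length, against -0.05 and 0.08 in replicates 2 and 3. The part of either in the pattern was not tested.

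Fold changes were also set against the E-box. The 18 genes with the motif had a median log2 fold change of -0.04, and 1 fell (EBNA1BP2). The 16 without it had a median of -0.30, and 2 fell (NIP7 and NOP56). Over all tested genes with a window the medians were -0.07 with the motif and -0.07 without. The difference between the sets was not tested.

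The related gene lists give the frame for these values. Of 40 further large subunit genes 1 rose and 0 fell in limma. NOP53, which recruits the trimming exosome, rose from 372 ± 13.9 to 465 ± 30.6 TPM (0.32, adjusted p = 0.0344). Of 14 genes of that exosome 1 fell, EXOSC2, from 30.6 ± 2.37 to 22.2 ± 1.83 TPM (-0.45, adjusted p = 0.0424), at a list median of -0.21. NOP53 and EXOSC2 were each called in 1 of the 6 fits lacking a library, and the omission of siControl replicate 1 gave them 0.148 and 0.172.

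Of 28 other described MYC targets 26 passed the filter, of which 5 fell and 2 rose, at a median of -0.16. NME1, a nucleotide kinase, fell from 421 ± 23.8 to 209 ± 28.3 TPM (-1.01, adjusted p = 0.00245), and ODC1, the first enzyme of polyamine synthesis, rose from 50.6 ± 3.84 to 85.8 ± 1.104 TPM (0.75, adjusted p = 0.00289). Both were called in each of the 21 alternatives. IMPDH2, of guanine nucleotide synthesis, fell (-0.49, adjusted p = 0.0163) and LDHA, lactate dehydrogenase A, rose (0.48, adjusted p = 0.0217), and were called in 3 and 2 of the 6 fits lacking a library. The omission of siControl replicate 3 gave IMPDH2 an adjusted p of 0.0746, and that of siControl replicate 1 gave LDHA 0.0851.

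Proliferation genes moved in the same libraries. Of 17 such genes 12 fell, at a median of -0.77, among them MCM3 (-1.23), MCM6 (-1.17) and PCNA (-1.14), and MCM4 (-0.87), whose adjusted p was 0.148 when siControl replicate 3 was omitted. By library the median of this list was -0.75, -0.84 and -0.69 in siMAD2L1 replicates 1, 2 and 3. Its part in the values of the 40 genes was not tested.

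**Figure D5:**
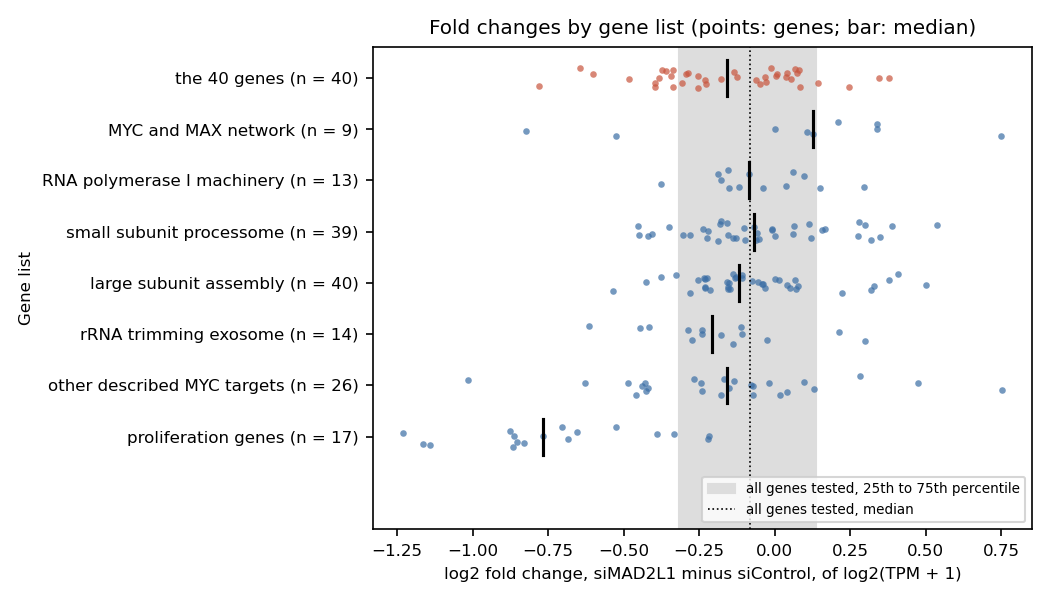
Each point is the log2 fold change of 1 tested gene, for the 40 genes (red) and the related lists (blue), with the list median as a black bar; vertical scatter within a list carries no meaning. The median of the 40 genes (-0.16) lies within the grey band, the 25th to 75th percentile of all genes tested, and that of the proliferation genes (-0.77) lies below it.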

How the data were processed

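RNA-seq libraries of SNU449 cells, 3 siControl and 3 siMAD2L1, were grouped by their titles. The authors deposited 1 table of TPM with a column per library. The submitters' processing notes name fastp, HISAT2, DESeq2 1.16.1 and hg38. For the read counter, annotation and strand setting nothing is stated there or in the labels. The rows of 8 of the 40 genes (UBTF, FBL, RRP9, UTP4, PES1, NOC2L, GNL3 and NAT10) carry an identifier of transcript assembly joined to the Ensembl identifier. Positions and spliced lengths came from GENCODE 29 (GRCh38).

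On log2(TPM + 1), siMAD2L1 was compared with siControl by limma 3.58.1 (R 4.3.3; trend option on) for the 14790 of 60589 genes averaging 1 TPM or more, with Benjamini-Hochberg adjustment over all of them and a threshold of 0.05. All adjusted p-values are from limma. Fold changes on this scale understate those of low genes. The labels do not say whether replicates were separate cultures, and p-values reflect only how these 6 libraries vary, which may be technical. On data simulated for this comparison (14790 genes, 10 runs, 200 changed genes) the fit recovered 55.6% of log2 changes of 0.5 and 97.6% of 1. Of its calls 5.03% were false. Changes were planted only in genes above a set level, and the spread was drawn independently for each library. Genes of the same level were given the same spread, so genes more variable than others of their level are not covered. The 200 changed genes are also fewer than the 1446 called in the data, so both shares may be too favourable. These shares therefore do not cover the lowest genes, such as UTP20, or a library that differs from the others of its group.

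The members, the related lists and the rules were chosen with earlier results of these data known. Values in every library are given for MYC, MAX, called members and the 2 highest of each role, with others chosen after their values were seen. From each related list come up to 4 called genes with the largest change, or else the 2 highest. The sequences at the gene start were chosen after the motif search. Alternatives covered the pseudocount, filter, scaling, variance model, replicate block, threshold, transcript length, libraries left out, and siMAD2L1 replicate 1 alone. Python 3.11.15 and matplotlib 3.10.9 were used for the motif search and plots.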

Additional observations from a re-analysis of the deposited data

How the results depend on the processing

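The count of the 40 genes called lower was 4, and 0 were called higher. It was 1 with no filter (1.51% of all genes lower), with limma without a trend (4.43%) and at an adjusted p of 0.01 (1.39%). Removal of the transcript-length trend also gave 1 (4.33%), and upper-quartile scaling gave 2 (4.84%). A pseudocount of 0.1 gave 3 (6.13%), as did quantile normalization (4.74%). A filter at 5 TPM gave 6 (9.76%), as did rescaling without mitochondrial and the 20 highest genes (7.45%), with UBTF and RRS1 added. The count stayed at 4 with a pseudocount of 0.5, robust variance or rescaling over protein-coding genes. With library weights 13 were lower and 2 higher (MYC and MAX). With siMAD2L1 replicate 1 alone against the controls 1 was lower and 2 higher (NOC3L and DDX21), and 566 of all genes were lower. That fit takes its spread from the controls alone, so its calls compare 1 library with them and not the knockdown. With a library left out the count lower ranged from 0 to 8, the count higher was 0 throughout, and the median lay between -0.20 and -0.12. NIP7 was among those lower in every alternative that called any. The 0.01 threshold is stricter by construction. Fits with a library left out are smaller, yet the one without siMAD2L1 replicate 1 called more, 8 of the 40 genes lower and 2410 genes in all. The cause of the shifts other than that at 0.01 was not tested.

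Over all genes 1446 were called, 525 higher and 921 lower. The counts were 727, 267 and 460 with no filter, 4860, 1514 and 3346 with library weights, and 359, 154 and 205 at 0.01. Without a trend 952 were called and 297 were higher. With a library left out they ranged from 356 to 2410, 147 to 709 and 209 to 1701.

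With the replicate number as a block, 868 genes were called, 336 higher and 532 lower, and 2 of the 40 were lower, NIP7 and RRS1. Deviations of same-numbered libraries correlated at 0.019, 0.0090 and 0.063, so the numbers were not taken to pair the libraries.

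Among uncalled genes that changed sign, the main log2 fold change was furthest from 0 for NCL (-0.34), WDR12 (-0.29), UTP15 (-0.25), GNL3 (-0.23) and NPM1 (-0.23). Log2 fold changes changed sign for uncalled genes as follows. With upper-quartile scaling they were 0.036 for FBL, 0.018 for NOP14 and 0.020 for PES1, and with quantile normalization 0.013 for NOP14. Without mitochondrial and the 20 highest genes they were -0.040 for UTP4, -0.0045 for WDR75, -0.044 for BYSL and -0.0090 for DDX21, and over protein-coding genes -0.0014 for UTP4 and -0.0065 for BYSL. With the length trend removed they were 0.084 for FBL, 0.057 for NOP14, 0.034 for IMP4, 0.047 for PES1 and 0.014 for NOP2. With library weights they were 0.032 for FBL, -0.21 for NOP58, 0.050 for NOP14, 0.0030 for RCL1, 0.055 for IMP4, 0.057 for PES1, 0.042 for BOP1, 0.045 for NOP2, -0.060 for DDX21 and -0.054 for LYAR. With 1 library left out at a time they ranged from -0.033 to 0.19 for MYC, -0.064 to 0.058 for FBL, -0.18 to 0.20 for NOP58, -0.048 to 0.053 for UTP4, -0.0054 to 0.30 for WDR43, -0.16 to 0.26 for WDR75, -0.20 to 0.031 for RCL1, -0.16 to 0.10 for IMP4, -0.054 to 0.053 for BYSL, -0.071 to 0.030 for PES1, -0.17 to 0.022 for NOP2, -0.23 to 0.26 for DDX21 and -0.073 to 0.17 for LYAR. With siMAD2L1 replicate 1 alone they were -0.13 for MYC, 0.10 for NCL, 0.18 for NPM1, -0.082 for UTP4, 0.24 for UTP15, -0.010 for BYSL, 0.045 for WDR12 and 0.28 for GNL3. The depth of the libraries is unknown, so counting error could not be separated from other spread.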

Other observations

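Neighbours that overlap the 40 genes on the opposite strand did not always move with them. TSR1, a late small subunit factor, had means of 28.7 ± 1.67 and 30.4 ± 2.79 TPM (SD, n = 3). SRR, serine racemase, which shares 1146 exonic bases with TSR1 on the other strand, fell from 16.2 to 9.85 TPM (log2 fold change -0.66, limma adjusted p = 0.0186), and SGSM2, which shares 10, fell from 20.5 to 11.0 TPM (-0.84, adjusted p = 0.00457). Without strand, reads of the shared exons cannot be assigned, so these values hold for the loci as counted.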
